A study of Arabidopsis thaliana with 4 samples.

Results

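The boundary CUC genes and the NAC genes that microRNA164 targets were described in embryos of Arabidopsis thaliana (ecotype background Col). RNA-seq libraries of amplified RNA were made from serrate-1 mutants (genotype se-1, 2 libraries) and from wild type (2 libraries), in both genotypes from embryos of 32 to 64 cells, at the globular stage. All 4 libraries are described with growth at 22 °C, 16 h of light and 8 h of dark, and 4 days of cold at 4 °C. The 7 genes were taken by their identifiers from tables of 27880 counted rows. They are the NAC transcription factor genes CUC1, CUC2, NAC1, NAC100 and NAC080, described as targets of miR164, the related gene CUC3, described as having no miR164 site, and the precursor gene MIR164c. All 7 have a row in the tables. Of these, 5 had enough counts to be tested, and NAC100 and NAC080 did not. The labels describe the libraries of a genotype as biological replicates and do not give the number of plants or embryos behind each.

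NAC proteins are plant transcription factors named after the founding members NAM, ATAF and CUC. In the embryo CUC1, CUC2 and CUC3 act together in the strip of cells between the future cotyledons, where they keep the organs separate and are needed for the shoot meristem to form. miR164 pairs with the mRNAs of several NAC genes and directs their cleavage, and it is cut out of a hairpin precursor by DCL1 with the help of HYL1 and of SERRATE, the zinc finger protein that the se-1 mutation affects. The amplification kit and the library kit both start from the poly(A) tail, so a count of MIR164c refers to precursor RNA and not to the mature microRNA.

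The sequences that define the group are the microRNA and its sites. The RefSeq annotation of TAIR10.1, the source of all sequences and coordinates here, holds the precursor genes MIR164a, MIR164b and MIR164c. Their 5′ mature microRNAs share the seed, bases 2 to 8, printed in capitals.
ath-miR164a: uGGAGAAGcagggcacgugca
ath-miR164b-5p: uGGAGAAGcagggcacgugca
ath-miR164c-5p: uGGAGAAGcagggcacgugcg
The miR164a and miR164b sequences are the same, and miR164c carries the substitution A21G relative to miR164a, counted from the 5′ end, outside the seed. The MIR164c hairpin is a gene of 102 nt on the forward strand at chr5:9852674-9852775, with no annotated gene overlapping it. It is shown because it is the precursor whose counts are reported here, with the annotated 5′ and 3′ microRNAs in capitals.
MIR164c hairpin: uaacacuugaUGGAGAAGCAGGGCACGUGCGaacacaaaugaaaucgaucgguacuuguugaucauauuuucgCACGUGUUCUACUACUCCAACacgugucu

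Sites were searched in 48265 transcripts of 27562 coding genes without gaps, scoring 1 for a mismatch and 0.5 for a G:U pair, with a total of at most 4 and at most 2 over microRNA bases 2 to 12. Capitals mark target bases that do not form a Watson-Crick pair with miR164a, whether a mismatch or a G:U pair. The 5 coding members other than CUC3 held a site, and so did the NAC genes NAC092 and AT3G12977.
NAC080 site, penalty 1.5: tTTacgtgccctgcttctcca
NAC100 site, penalty 1.5: tCTacgtgccctgcttctcca
NAC1 site, penalty 2: AgcacgtAccctgcttctcca
CUC1 site, penalty 2: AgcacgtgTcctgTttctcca
CUC2 site, penalty 2: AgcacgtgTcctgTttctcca
AT3G12977 site, penalty 2.5: AgcaTgtAccctgcttctcca
NAC092 site, penalty 3.5: CTcacgtgAcctgcttctccG
best window in CUC3, penalty 8: tTTaTgtgccAtTTtGGtATa
The sites of CUC1 and CUC2 were letter for letter the same. All 7 NAC sites lay in the coding part of exon 3 of 3, while the best window in CUC3 lay in its 5′ UTR and did not meet the rule. The CUC1 site is at chr3:5111137-5111157 on the forward strand, the CUC2 site at chr5:21902301-21902321 on the reverse strand, and the NAC1 site at chr1:20947142-20947162 on the reverse strand. The NAC100 site is at chr5:24701687-24701707 on the reverse strand and the NAC080 site at chr5:2436958-2436978 on the forward strand. By this rule 36 coding genes (0.131%) hold a site, 7 of them NAC genes and 29 outside the family.

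Total counts were 18580516 and 20882004 in the se-1 libraries and 18894161 and 19362653 in the wild-type libraries. SE itself had 69.4 and 71.1 CPM in se-1 against 96.7 and 98.6 CPM in wild type, where CPM scales each library to the same total with TMM factors. Its level in the mutant was thus 1.39-fold lower (log2 -0.48, standard error 0.079, edgeR adjusted p = 2.9e-05), and at -0.08 after a correction for transcript length it did not pass (edgeR adjusted p = 0.37), while with GC content added it passed at -0.27 (edgeR adjusted p = 0.0058). The se-1 allele is a small deletion within the coding sequence, so its RNA level does not check the genotype. Of 18714 genes tested, 36.2% were called higher in se-1 and 36.0% lower, together 72.3%, at a Benjamini-Hochberg adjusted p under 0.05. In 85.5% of tested genes the 2 genotypes did not overlap in CPM, with both se-1 libraries higher in 42.7% and lower in 42.8%. Counts of single members are to be read against these shares. Of 9 embryo markers, all tested and none at 0, 4 were higher in se-1, among them WOX2 (2.55-fold), and 3 lower, among them WOX8 (2.89-fold). Their summed level was 1387 and 1365 CPM in se-1 against 1457 and 1532 CPM in wild type. The 8 endosperm markers summed to 81.3 and 80.2 CPM in se-1 against 105 and 97.1 CPM in wild type, with 2 of 6 tested markers higher and 3 lower and IKU2 at 0 in both se-1 libraries. The 7 seed coat markers, all tested and none at 0, summed to 197 and 200.1 CPM in se-1 against 145 and 132 CPM in wild type, with 3 higher and 3 lower. Markers went in both directions within each of these lists. Whether the sums reflect a difference in tissue, and what part it has in the values below, was not tested. In whole-embryo RNA, a change in the number of cells that express a gene and a change in RNA per cell cannot be told apart.

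Of the 5 members tested, 4 were higher in se-1 and none was lower, beside 36.2% and 36.0% of all tested genes. The 4 are CUC1, CUC2, NAC1 and MIR164c, and CUC3 did not pass the test. The median log2 fold change of the 5 was 0.91, against 0.00 over all genes tested. NAC100 and NAC080, too low to be tested, had fewer counts in se-1 than in wild type. Members with a site thus had values in both directions. MIR164c passed the filter on low counts through its se-1 libraries alone, so its inclusion among the tested members depended on its being high there. A rise was also common among the annotated microRNA genes that were tested, 33 of the 224 with a row. Of these 33, 29 were higher in se-1 (87.9%) and 2 lower (6.06%), with a median log2 fold change of 2.55. The filter can admit other microRNA genes through se-1 alone as well, so this share can be shaped by the same selection. How many of the 33 entered in that way was not counted.

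**Figure D1:**
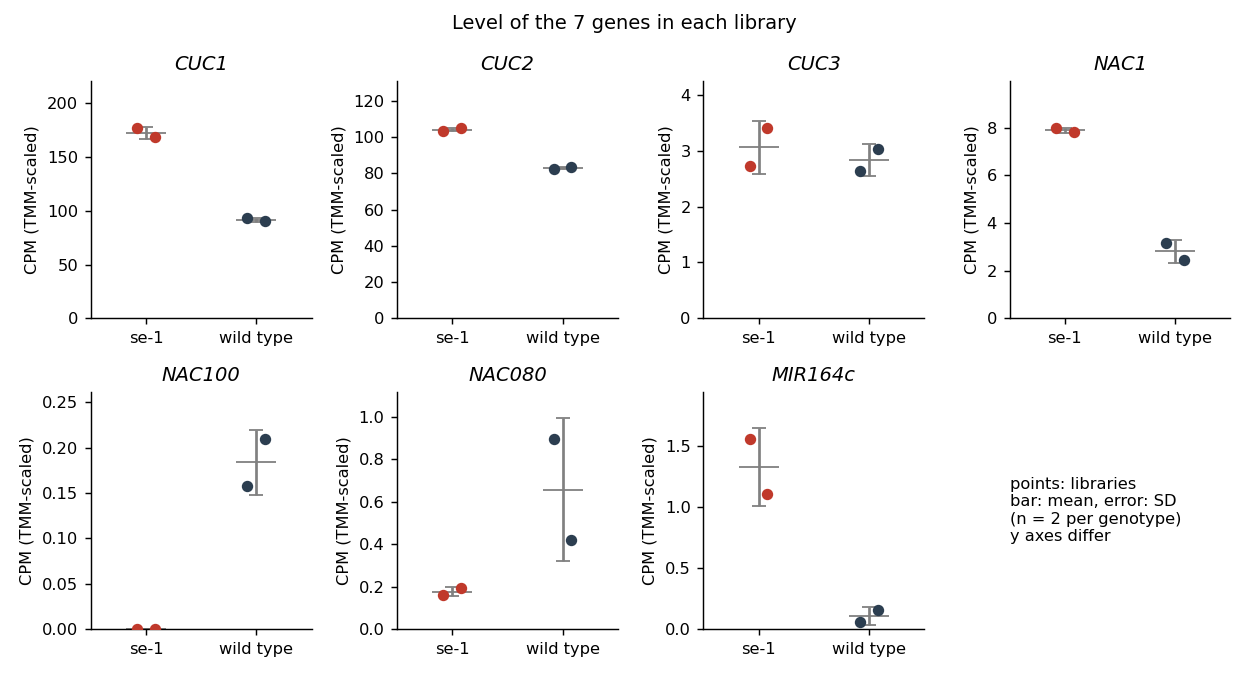
Level of each of the 7 genes in CPM after TMM scaling (vertical axes, which start at 0 and differ between genes) in se-1 and wild-type libraries. Points are libraries, bars are means and error bars the SD of 2 libraries. CUC1, CUC2, NAC1 and MIR164c are higher in both se-1 libraries, CUC3 overlaps, and NAC100 and NAC080 are lower in both se-1 libraries at under 1 CPM.

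CUC1 (AT3G15170, chr3:5109782-5111608, forward strand), which with CUC2 separates the cotyledons, had 177 and 168 CPM in the se-1 libraries, against 93.1 and 90.2 CPM in the wild-type libraries. Both se-1 libraries lay above both wild-type libraries, and the gap was much wider than the spread within a genotype. The means were 173 ± 5.85 CPM in se-1, against 91.6 ± 2.02 CPM in wild type (SD, n = 2 libraries each), behind which stand 6816 and 3492 counts. The fold change was 1.88 (log2 0.91, SE 0.080, edgeR adjusted p = 8.1e-09). CUC1 stood above 93.9% of tested genes in se-1 and above 87.2% of them in wild type, by mean CPM not divided by length.

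CUC2 (AT5G53950, chr5:21901704-21903854, reverse strand), which carries the same site, had 103 and 105 CPM in se-1 libraries, against 82.5 and 83.3 CPM in wild-type libraries. The genotypes did not overlap and the replicates lay close together, but the step between genotypes was smaller than for CUC1. Means were 104 ± 0.936 CPM in se-1, against 82.9 ± 0.509 CPM in wild type (SD, n = 2 each), and CUC2 rose 1.26-fold (log2 0.33, SE 0.079, edgeR adjusted p = 0.001). This call depended on whether GC content was corrected along with length. With transcript length and GC content corrected together the log2 value was 0.13 (edgeR adjusted p = 0.15) and the call was lost, while with length alone it was 0.32 (edgeR adjusted p = 0.0017).

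CUC3 (AT1G76420, chr1:28671806-28674045, reverse strand), which shares the boundary function, was counted at 51 and 71 reads in se-1, against 50 and 58 reads in wild type. This is 2.73 and 3.40 CPM in se-1, against 2.63 and 3.03 CPM in wild type. The genotypes overlapped, in the 1 tested NAC member without a site. The log2 fold change was 0.12 (SE 0.205, edgeR adjusted p = 0.61), and the ratio of summed counts was 1.09 with an exact 95% interval of 0.833 to 1.42. That interval, which covers counting error only, contains the 1.26-fold of CUC2 and lies below the 1.88-fold of CUC1. Without se-1 replicate 2 the value of CUC3 turned to -0.049 (edgeR adjusted p = 0.88).

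NAC1 (AT1G56010, chr1:20946571-20949281, reverse strand), known from auxin responses in lateral root formation, had 7.98 and 7.81 CPM in se-1 libraries, against 3.16 and 2.46 CPM in wild-type libraries. Both se-1 libraries were above both wild-type libraries, and its fitted fold was the largest of the 4 tested coding members. Means were 7.89 ± 0.117 CPM in se-1, against 2.81 ± 0.497 CPM in wild type (SD, n = 2 each), a 2.81-fold rise (log2 1.49, SE 0.167, edgeR adjusted p = 2.3e-07). The value is uncertain because genes on the opposite strand overlap NAC1 and the strand setting of the counting is not given in the sources used here. One, AT1G56000, shares 148 nt with NAC1 and was itself lower, with 38 and 51 counts in se-1 against 68 and 71 in wild type (log2 -0.70, edgeR adjusted p = 0.0048). The other, the antisense RNA AT1G08087 of 809 nt at chr1:20948161-20948969, has no row of its own. One of the 2 annotated NAC1 transcripts keeps the first intron, and the counts do not separate the transcripts.

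NAC100 (AT5G61430, chr5:24701062-24702787, reverse strand) had 0 counts in both se-1 libraries, against 3 and 4 counts in the wild-type libraries. With the se-1 total set at 3 counts in place of 0, NAC100 was 2.42-fold lower in se-1. That figure leaves out the counting error of the wild-type reads. NAC080 (AT5G07680, chr5:2435795-2437661, forward strand) had 3 and 4 counts in se-1, against 17 and 8 counts in wild type. Both genes are close relatives with nearly the same site, and in each the genotypes did not overlap. For NAC080 the ratio of summed counts was 0.270, with an exact 95% interval of 0.0985 to 0.642 for counting error alone. Neither gene passed the filter on low counts. Fitted without that filter, NAC080 stood at log2 -1.85 (edgeR adjusted p = 0.038) and NAC100 passed as well (edgeR adjusted p = 0.035), but its fitted size depends on the treatment of zeros and is not given. NAC080 also came through the filter in 3 of the 4 fits that leave out 1 library, with an edgeR adjusted p of 0.062 without se-1 replicate 1, 0.043 without se-1 replicate 2 and 0.0014 without wild type replicate 2. Without wild type replicate 1, which holds 17 of its 25 wild-type counts, it was not tested, and the ratio of summed counts was 0.423 with an interval of 0.131 to 1.33 that includes no change. The longest run of identical bases between the NAC100 and NAC080 transcripts was 37 nt, and how reads matching both genes were counted is not known.

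MIR164c (AT5G27807) was counted at 29 and 23 reads in se-1, against 1 and 3 reads in wild type. This is 1.55 and 1.10 CPM in se-1, against 0.0527 and 0.157 CPM in wild type. Both se-1 libraries were far above both wild-type libraries, although the wild-type level rests on 4 reads in all. The fitted fold change was 11.9 (log2 3.57, SE 0.519, edgeR adjusted p = 5.9e-06), and the ratio of summed counts was 12.5 with an exact 95% interval of 4.61 to 47.7. The size of the rise depended on the few wild-type reads, with a log2 value of 3.02 without wild type replicate 1 and 4.48 without wild type replicate 2. The other precursor genes for miR164 differed in detection. MIR164B (AT5G01747) had 13 and 10 counts in se-1 and 0 in both wild-type libraries. With the wild-type total set at 3 counts it was 7.39-fold higher in se-1, leaving out the counting error of the se-1 reads. MIR164A (AT2G47585) had 0 counts in all 4 libraries, which makes no comparison possible.

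Levels were compared between the members per length of transcript, although the amplification can favour short over long transcripts or the reverse. Per kilobase CUC1 led, with se-1 libraries averaging 139.6 ± 4.73 CPM and wild-type libraries 74.1 ± 1.64 CPM (SD, n = 2 each). CUC2 came next in the coding genes, at 71.9 ± 0.646 CPM per kilobase in se-1, against 57.2 ± 0.351 CPM per kilobase in wild type. NAC1 had 5.67 ± 0.0839 CPM per kilobase in se-1, against 2.02 ± 0.357 CPM per kilobase in wild type. CUC3 stood at 2.13 ± 0.331 CPM per kilobase in se-1, against 1.97 ± 0.197 CPM per kilobase in wild type. In wild type NAC1 and CUC3 did not differ beyond their spread, whereas in se-1 both NAC1 libraries lay above both CUC3 libraries. NAC080 and NAC100 were last in both genotypes, with 0.108 ± 0.0135 CPM per kilobase for NAC080 in se-1 and 0.404 ± 0.207 in wild type. NAC100 had 0 in se-1 and 0.122 ± 0.0239 CPM per kilobase in wild type. Every other neighbouring pair in this order was separate in both genotypes by the values of single libraries. MIR164c is not placed in it, because the annotated hairpin is only a piece of the primary transcript.

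Transcript length moved with the fold changes in these libraries, and a smooth curve on length fitted the log2 fold changes of coding genes with an R2 of 0.133. With GC content added the R2 was 0.139. Corrected for length, CUC1 stood at log2 0.70 (edgeR adjusted p = 3.1e-07), and with GC content added at 0.52 (edgeR adjusted p = 1.2e-05). NAC1 stood at 1.44 with length corrected and at 1.30 with GC content added (edgeR adjusted p = 4.1e-07 and 1.6e-06). Both kept their call, although the fitted rise of CUC1 became smaller with each correction. CUC3 was at 0.10 and 0.12 (edgeR adjusted p = 0.68 and 0.61). The hairpin of MIR164c, at 102 nt, is shorter than the coding transcripts from which the curve was drawn and took the curve's end value, giving 4.15 and 4.07. With length corrected 4 of the 5 tested members were higher in se-1 and none lower, where 36.2% of all genes were called higher, 30.2% lower and 66.4% in either direction. With GC content added 3 of the 5 were higher and none lower, where 36.2% of all genes were higher, 30.2% lower and 66.5% called in either direction.

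**Figure D2:**
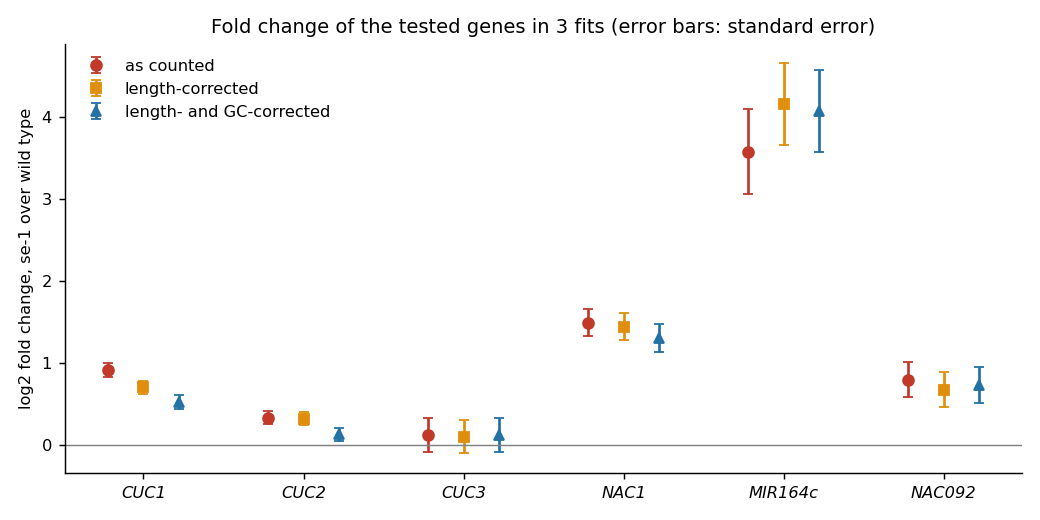
Log2 fold change of se-1 over wild type (vertical axis) for the 5 tested members and the miR164-site gene NAC092, as counted and after correction for transcript length or for length and GC content. Error bars are standard errors. CUC1 moves through 0.91, 0.70 and 0.52 and CUC2 through 0.33, 0.32 and 0.13, while CUC3 stays near 0.

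Within a library, the ratio of 2 transcripts is free of the library's scaling, but not of the trends with length and GC content. CUC1 to CUC3, a gene with a site against one without, was 64.7 and 49.5 in the se-1 libraries, against 35.3 and 29.7 in the wild-type libraries. The genotypes did not overlap, and the mean difference was 0.80 on the log2 scale. In the fitted fold changes, CUC1 exceeded CUC3 by 0.79 as counted, by 0.60 with length corrected and by 0.40 with GC content added. CUC1 to CUC2, both with the same site, was 1.71 and 1.61 in se-1, against 1.13 and 1.08 in wild type, a mean log2 difference of 0.58 with no overlap. CUC2 to CUC3 was 37.9 and 30.8 in se-1, against 31.3 and 27.4 in wild type, so the genotypes overlapped, at a mean log2 difference of 0.22. The p of a 2-sided exact permutation test was 0.333 for CUC1 to CUC3, 0.333 for CUC1 to CUC2 and 0.667 for CUC2 to CUC3. With 2 libraries against 2 that test cannot go below 0.333, so none of the 3 ratios could pass. Of all CUC counts, CUC1 made up 62.5% and 60.9% in se-1, against 52.2% and 51.1% in wild type. CUC2 made up 36.6% and 37.9% in se-1, against 46.3% and 47.2% in wild type. CUC3 was the remainder, at 0.965% and 1.23% in se-1 against 1.48% and 1.72% in wild type. The summed CUC level was 283 and 277 CPM in se-1, against 178 and 177 CPM in wild type.

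**Figure D3:**
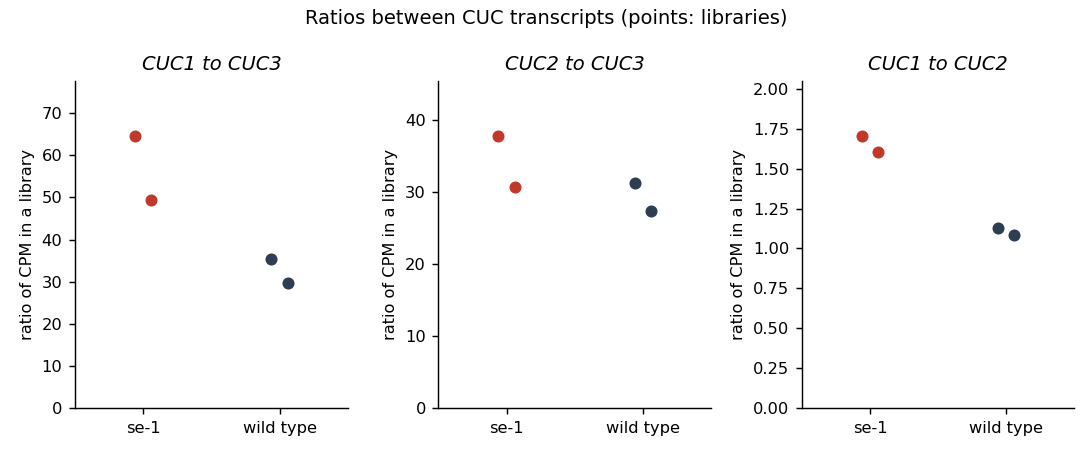
Ratio of CPM between CUC transcripts within each library (vertical axes, starting at 0), se-1 left of wild type; points are libraries. The ratios of CUC1 to CUC3 and of CUC1 to CUC2 are higher in both se-1 libraries, whereas CUC2 to CUC3 overlaps between 37.9 and 30.8 in se-1 and 31.3 and 27.4 in wild type.

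Genes outside the 7 members that hold a miR164 site were read in the same way. NAC092 (AT5G39610, also called ORE1), a regulator of leaf senescence, had 3.21 and 3.35 CPM in se-1, against 1.69 and 2.09 CPM in wild type. It was 1.74-fold higher in se-1 (log2 0.80, SE 0.217, edgeR adjusted p = 0.003) and kept its call with length corrected (0.67) and with GC content added (0.73). AT3G12977 was too low to be tested, with 4 and 5 counts in se-1 against 8 and 12 counts in wild type. Its ratio of summed counts was 0.434, with an exact 95% interval of 0.174 to 0.996. All 4 tested NAC genes with a site were thus called higher in se-1 as counted and with length corrected, beside 36.2% of all tested genes. With GC content added 3 of the 4 were called higher, and CUC2 did not pass. All 3 untested ones had fewer counts in se-1. The 4 that were tested are the more abundant ones, and the 3 others had at most 17 counts in any library.

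Of the 29 genes outside the NAC family with a site, 26 were tested, 6 of them higher in se-1 (23.1%) and 8 lower (30.8%), against 36.2% and 36.0% of all tested genes. Their median log2 fold change was -0.05, against 0.85 for the 4 NAC genes. With length corrected, 12 of the 26 were higher and 5 lower, and with GC content added 11 and 5, so the balance of directions among them turned with the correction. Among all genes the shares were 36.2% higher and 30.2% lower with either correction. Apart from AT1G10530, at a penalty of 3 and with 7 and 7 counts in se-1 against 7 and 9 in wild type, their sites had penalties of 3.5 or 4. No site outside the family scored as well as those of CUC1, CUC2, NAC1, NAC100 or NAC080.

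**Figure D4:**
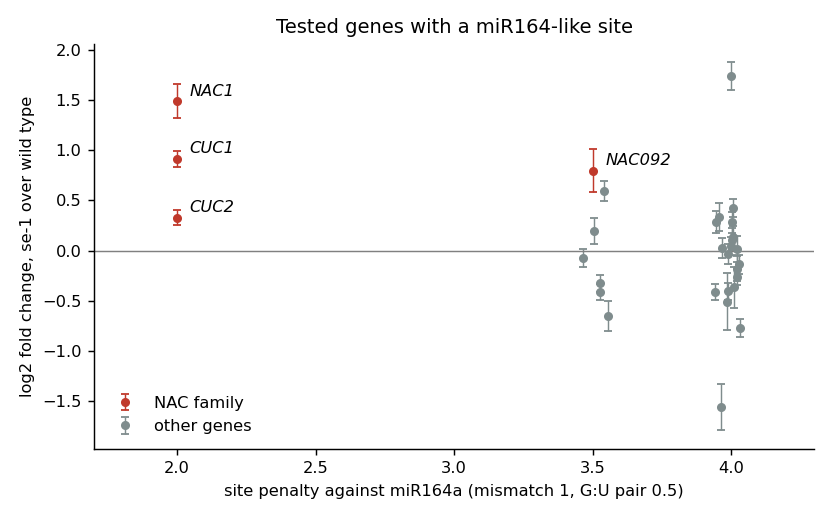
Log2 fold change of se-1 over wild type (vertical axis, error bars are standard errors) against the penalty of the best miR164 site (horizontal axis) for the 30 tested genes with a site. NAC genes are red and named, other genes are grey and shifted slightly sideways so that they can be seen apart. The 4 NAC genes all lie above 0, and the 26 others lie on both sides.

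Members of the NAC family were called in both directions, in shares near those of all genes. Of 117 annotated NAC genes 48 were tested, 21 higher (43.8%) and 16 lower (33.3%) in se-1, against 36.2% and 36.0% of all tested genes, with a median log2 fold change of 0.11. Among the 44 tested without a site, 17 were higher, 16 lower and 11 did not pass, with a median of 0.04. The family members with the smallest adjusted p all lacked a site. NAC085 (AT5G14490) had 404 and 393 counts in se-1, against 1 and 0 counts in wild type, and passed the filter on low counts through se-1 alone. ATAF1 (AT1G01720), a stress-induced NAC factor, had 116 and 101 CPM in se-1 against 37.1 and 38.1 CPM in wild type (log2 1.53). NAC13 (AT1G32870), which acts in mitochondrial retrograde signalling, had 61.3 and 59.8 CPM in se-1 against 21.8 and 21.3 CPM in wild type. NAC103 (AT5G64060), known from the unfolded protein response, had 21.7 and 22.4 CPM in se-1 against 6.58 and 5.54 CPM in wild type. In each of these the genotypes did not overlap, as in 85.5% of all tested genes, and the fitted rise was larger than that of CUC1.

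Close relatives of the members without a site by the rule also included genes that rose. NAC087 (AT5G18270) had 25 and 24 counts in se-1 against 2 and 1 in wild type (log2 3.87, SE 0.529, edgeR adjusted p = 2.8e-06). NAC046 (AT3G04060) had 15 and 18 counts in se-1 against 3 and 1 in wild type (log2 2.92, SE 0.551, edgeR adjusted p = 0.00011). Both are known to promote cell death or senescence in other tissues, and both passed the filter on low counts through se-1 alone. The log2 value of NAC046 was 3.84 without wild type replicate 1 and 2.35 without wild type replicate 2. NAC038 (AT2G24430) had 5.94 and 5.03 CPM in se-1 against 3.95 and 4.71 CPM in wild type and did not pass (log2 0.34, edgeR adjusted p = 0.08), and its direction turned to -0.12 with length corrected and -0.33 with GC content added. Without wild type replicate 2 it passed at 0.46 (edgeR adjusted p = 0.049). NAC059 (AT3G29035) had 7 and 8 counts in se-1 against 6 and 6 in wild type, and NAC058 (AT3G18400) had none in any library.

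Genes known to act downstream of the CUC proteins were counted next: of 5 listed and tested, 3 were higher in se-1 and none was lower, with the same 3 called after either correction. Among all tested genes 36.2% were higher and 36.0% lower, and the 60% called in this list lies below the 72.3% called among all genes. Their median log2 fold change was 0.66. LSH4 (AT3G23290), a boundary gene that CUC1 activates, had 12.04 and 12.17 CPM in se-1, against 3.32 and 3.14 CPM in wild type, and was 3.75-fold higher (log2 1.91, SE 0.142, edgeR adjusted p = 9.1e-10). KNAT6 (AT1G23380), a meristem and boundary homeobox gene, had 29.1 and 28.9 CPM in se-1, against 16.3 and 16.9 CPM in wild type (log2 0.81, SE 0.094, edgeR adjusted p = 3.7e-07). STM (AT1G62360), the homeobox gene that maintains the shoot meristem and depends on CUC activity, had 11.3 and 10.2 CPM in se-1, against 6.85 and 6.80 CPM in wild type. STM was 1.58-fold higher (log2 0.66, SE 0.127, edgeR adjusted p = 0.00014). In all 3 genes the genotypes did not overlap, as in 85.5% of all tested genes. LSH3 (AT2G31160), the closest relative of LSH4, did not pass, with 3.80 and 4.07 CPM in se-1 against 4.48 and 4.97 CPM in wild type (log2 -0.26, edgeR adjusted p = 0.17). LAS (AT1G55580), needed for axillary meristems, did not pass either and its genotypes overlapped, with 2.46 and 2.40 CPM in se-1 against 2.42 and 1.83 CPM in wild type (log2 0.19, edgeR adjusted p = 0.47). How the levels of these genes relate to those of CUC1 and CUC2 was not tested.

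Of 11 other genes with roles at organ boundaries, 8 were tested, 5 of them higher and none lower in se-1. The 62.5% called is below the 72.3% of all tested genes, and with length and GC content corrected the share was 37.5%, against 66.5% of all genes. DRN (AT1G12980), an AP2-type gene of the embryo apex, had 7.23 and 5.70 CPM in se-1 against 1.90 and 1.94 CPM in wild type (log2 1.74, SE 0.196, edgeR adjusted p = 2.4e-07). ATH1 (AT4G32980), a BELL homeobox gene, had 3.10 and 3.59 CPM in se-1 against 1.95 and 2.04 CPM in wild type (log2 0.75, edgeR adjusted p = 0.0039), and did not pass under DESeq2 (adjusted p = 0.055). DRN and ATH1 were the 2 called higher by edgeR with length and GC content corrected, at 1.41 and 1.08. HAN (AT3G50870), a GATA factor of the boundary and the proembryo, had 40.1 and 34.5 CPM in se-1 against 26.5 and 28.9 CPM in wild type (log2 0.43, edgeR adjusted p = 0.00059), which was 0.17 and did not pass with both corrections (edgeR adjusted p = 0.13). JLO (AT4G00220), a LOB-domain gene, had 10.9 and 11.2 CPM in se-1 against 8.27 and 6.80 CPM in wild type (log2 0.55, edgeR adjusted p = 0.00085), and with both corrections its value was -0.046 (edgeR adjusted p = 0.77). DRNL, the paralogue of DRN, passed at 0.24 as counted and in the opposite direction at -0.46 with both corrections. With length alone 3 of the 8 were higher and 1 lower, with GC content added 2 and 1, and DESeq2 called 3 in all. LOB, the boundary gene that names its family, had no count in any library.

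Of 17 genes reported to act upstream of the CUC genes, 14 were tested, 4 of them higher and 4 lower in se-1, and their median log2 fold change was -0.06. The 57.1% called lies below the 72.3% of all tested genes, of which 36.2% were higher and 36.0% lower. PID (AT2G34650), a kinase that directs auxin transport, had 135 and 129 CPM in se-1 against 81.7 and 77.6 CPM in wild type (log2 0.72, SE 0.080, edgeR adjusted p = 1.9e-07). AS1 (AT2G37630), a MYB repressor of meristem genes in leaf primordia, had 52.9 and 51.4 CPM in se-1 against 39.0 and 40.8 CPM in wild type (log2 0.38, edgeR adjusted p = 0.00044). Both stayed higher with either correction. SYD (AT2G28290), a chromatin remodelling ATPase, had 51.1 and 44.4 CPM in se-1 against 119.9 and 110.5 CPM in wild type (log2 -1.27, edgeR adjusted p = 4.2e-10). MP (AT1G19850), the auxin response factor MONOPTEROS, had 163 and 152 CPM in se-1 against 269.96 and 268 CPM in wild type (log2 -0.77, edgeR adjusted p = 8.6e-08). These falls of SYD and MP were at -0.08 and -0.06 with length corrected and no longer passed (edgeR adjusted p = 0.45 and 0.51). With length corrected 6 of the 14 were higher and 1 lower, and with GC content added 7 and 1. Among all genes 36.2% were higher and 30.2% lower with either correction. Without wild type replicate 1, 4 of these genes were called in all, and DESeq2 called 5. AS1 and MP each overlap a neighbour on the opposite strand, and how reads there were assigned is not known.

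**Figure D5:**
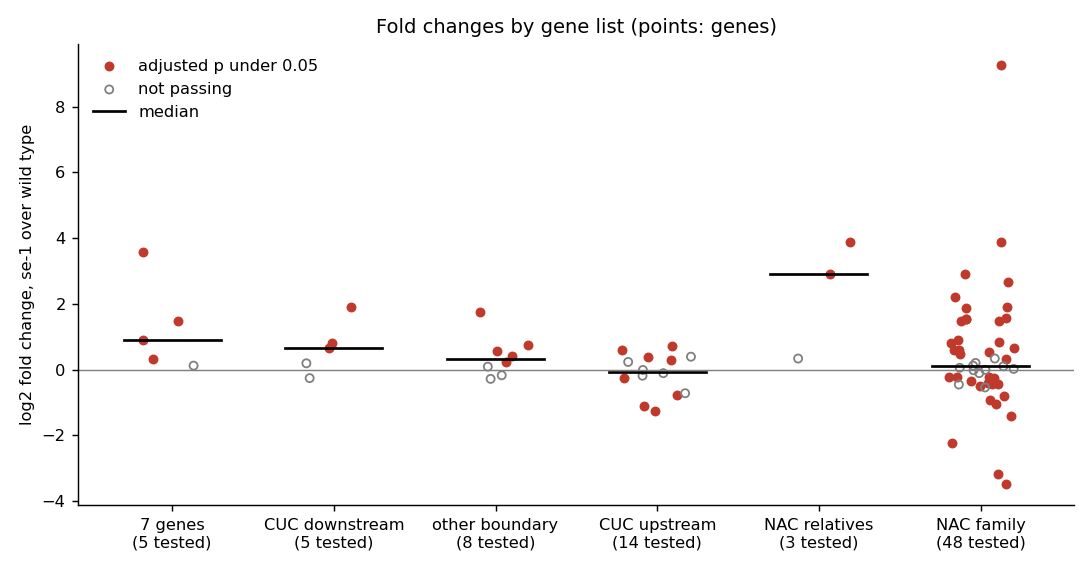
Log2 fold change of se-1 over wild type (vertical axis) for the tested genes of each list (horizontal axis), with filled points for an adjusted p under 0.05, open points for genes not passing, and a line at the median. The 5 tested of the 7 genes and the CUC downstream genes have medians of 0.91 and 0.66. The 5 include MIR164c, which passed the filter on low counts through se-1 alone. The upstream list and the NAC family, which includes the NAC members, spread to both sides of 0.

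By the distance in log2(CPM + 0.5) over the 4 libraries, the tested genes most like CUC1 in level and pattern were AT1G57860, annotated as an SH3-like translation protein, and AT1G26740, a ribosomal L32p family gene, with root mean square differences of 0.025 and 0.067. For CUC2 they were MEE60 and AT2G03640, at 0.053 and 0.061. For CUC3 they were OTP70 and AT4G31115, at 0.059 and 0.081, and for NAC1 the uncharacterized genes AT4G33600 and AT2G35736, at 0.062 and 0.070. MIR164c was nearest to AT3G24060 and AT3G53040, at 0.075 and 0.114. None of these neighbours was a NAC gene, and with 4 libraries in 2 genotypes the measure mostly reflects a gene's level and its step between genotypes.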

How the data were processed

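The authors deposited raw counts, whole numbers of reads per gene with no normalization, as 1 table per library. Per the submitters' processing notes the tools were featureCounts, HISAT2 2.0.5, Cufflinks 2.2.1 and FastQC 0.11.5, and the build was TAIR10. The sources used here give neither the order of these tools nor the annotation release, the strand setting or the treatment of multiply mapped reads. Per the labels' protocols, RNA from an RNAqueous-Micro extraction was amplified with MessageAmp aRNA reagents before TruSeq RNA library preparation. Such amplification can favour short over long transcripts or the reverse, and reads carry no molecular identifiers.

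Of the 27880 rows, 27576 matched the TAIR10.1 annotation, and of 94 rows that join several loci none holds a listed gene. The tables hold no coordinates, so coordinates and sequences are those of TAIR10.1. Replicates differed by more than counting noise (chi-square per degree of freedom 6.16 in se-1 and 4.33 in wild type). The edgeR p-values rest on the spread between these libraries. With 2 libraries per genotype, the spread of each gene is moderated toward a trend over all tested genes.

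The test was that of edgeR 4.0.16 (R 4.3.3), with filterByExpr by genotype, TMM scaling and a 2-sided quasi-likelihood F-test of se-1 over wild type with no other covariate, adjusted by Benjamini-Hochberg over all 18714 genes at 0.05. This test was also run on simulated data in which few genes changed and no length trend was set. That run does not check the test at the share of genes called here. The standard error is the absolute log2 fold change divided by the square root of F. Length corrections used offsets from a spline with 5 degrees of freedom of log2 fold change on log10 length, alone or with GC content, of the transcript with the longest coding sequence, over 18529 genes. Intervals of count ratios are exact at 95% and cover counting error only. A count of 0 over a genotype was set at 3 counts for a fold change, which takes the count of the other genotype as exact.

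Alternatives were DESeq2 1.42.0 and its size factors, library size alone, limma-voom (limma 3.58.1), 2 other filters, a replicate block, the length corrections and leaving out each library. The members and the lists were chosen with earlier results of these data known. The genes named are the members, the MIR164 genes, the NAC genes with a site, up to 4 tested genes per list with the smallest adjusted p, and 2 nearest genes per tested member by level. Genes with a site outside the NAC family were too many to name and are given as counts, except AT1G10530, which had the lowest penalty. LAS, DRNL, LOB, NAC058, NAC059 and AT1G56000 were named after their values were seen.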

Additional observations from a re-analysis of the deposited data

How the results depend on the processing

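The 4 tested members called higher in se-1 kept that call under DESeq2, DESeq2 size factors, library size alone, limma-voom, both other filters, the replicate block and the length correction, and only CUC2 lost it with length and GC content corrected together (0.13, edgeR adjusted p = 0.15). Leaving out 1 library gave log2 values of 0.88 to 0.95 for CUC1, 0.32 to 0.35 for CUC2, -0.049 to 0.27 for CUC3, 1.31 to 1.68 for NAC1 and 3.02 to 4.48 for MIR164c, with 4 members called each time. The reversed value of CUC3 is the one without se-1 replicate 2. The log2 ratio of CUC1 to CUC3 lay between 0.61 and 1.00. Over all genes, between 12407 and 12530 were called with a library left out, and the CUC downstream count stayed at 3.

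Counts that moved by over 1.5 times were those of small lists. Of the other boundary genes 3 were called by DESeq2 and 3 with length and GC content corrected, against 5, and 4 to 5 with a library left out. Of the CUC upstream genes DESeq2 called 5, against 8, and 4 to 8 were called with a library left out, 4 without wild type replicate 1. Of the NAC relatives 1 was called when at least 1 CPM in 2 libraries was required, against 2, because NAC046 lies below that level, and 2 to 3 with a library left out. NAC family calls ranged from 34 to 39 and calls among genes with a site from 15 to 20 with a library left out. The direction of NAC038 reversed to -0.12 with length corrected and -0.33 with GC content added, and that of JLO to -0.046 with both. The cause was not tested.

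The labels number the replicates, but the numbers name no shared batch, and deviations of same-numbered libraries from their group means correlated at 0.026, so they are not treated as pairs. With a replicate block 13683 genes were called, against 13523, and 4 members as before. Depth limits what can be read of NAC100, NAC080, MIR164A, MIR164B and AT3G12977, which had at most 17 counts in any library.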
